A study of Mus musculus with 18 samples.

Results

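The 33 genes described here carry out glucose uptake, glycolysis, lactate export and the response to low oxygen. They were taken as a list of mouse gene symbols and matched to 33 of the 55487 Ensembl gene IDs in the tables. The libraries came from regulatory T (Treg) cells, a CD4+ lineage defined by the transcription factor Foxp3, and were made from polyadenylated RNA. All mice were wild-type and untreated. The 6 groups of 3 libraries differ only in the site the cells were sorted from, namely spleen, lymph node, bone marrow, liver, lung and peripheral blood (called blood below). The labels give no age, sex, sorting gate or number of animals, and do not say that replicates came from separate animals, so p-values measure the spread between these libraries, which may be technical.

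Glycolysis splits glucose into pyruvate in the cytosol. Glucose enters through facilitative transporters, is trapped by hexokinase, is committed at phosphofructokinase, and leaves as lactate through monocarboxylate transporters when pyruvate is not passed to mitochondria. The transcription factor HIF-1 joins these steps to oxygen: prolyl hydroxylases mark its alpha subunit for destruction when oxygen is present, and when it accumulates it raises transcription of transporters, glycolytic enzymes and survival genes. In T cells, antigen receptor and growth signals raise the same genes without low oxygen, and Treg cells are known to rely less on glycolysis than effector T cells.

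Values are in TPM, the RSEM unit that gives each gene's share of a library's transcripts after correction for length. Marker genes of T cells were present in every group: all 20 genes of a T cell list averaged 1 TPM or more, and Foxp3 lay between 85.4 and 240.3 TPM across libraries. The sum of a list of 10 Treg genes differed between groups. It averaged 3603 TPM in lung, 2543 in liver, 2445 in lymph node, 2071 in spleen, 1433 in bone marrow and 776 in blood. Markers of other cells differed between groups. A list of 14 myeloid and neutrophil genes summed to 50610 to 50950 TPM in bone marrow and 28900 to 29770 TPM in blood. The same sum was 1727 to 1843 TPM in lung, 717 to 911 TPM in spleen, 218 to 441 TPM in liver and 40.2 to 92.5 TPM in lymph node. Of the 14 genes, 11 averaged at least 1 TPM in lymph node, 13 in liver and 14 in each other group. A macrophage list of 13 genes, added after the data were seen, summed to 1242 to 1295 TPM in bone marrow, 900 to 918 in blood, 726 to 828 in lung, 68.0 to 72.0 in spleen, 31.7 to 47.0 in liver and 2.73 to 7.37 in lymph node. Marco, an alveolar macrophage receptor, was at 0 in all bone marrow and liver libraries, Siglecf at 0 in all liver libraries and Mertk at 0 in all lymph node libraries. Plet1 (35.4 to 49.9 TPM in lung and at most 0.66 TPM elsewhere), Mrc1, Mertk and Ear2 were higher in all 3 lung libraries than in any other library, and Marco had its highest mean in lung (4.67 TPM). Adgre1, Csf1r, Cd68, Siglecf, C1qa, C1qb and Fabp4 had their highest means in blood, and Chil3 in bone marrow. Chil3 alone averaged 1120 TPM in bone marrow, 481 TPM in lung and 170 TPM in blood, so it weighs heavily in the macrophage sums. Lung epithelial genes summed to 226.7 to 303.0 TPM in lung, with Cldn18 at 0 in all 3 libraries, and to at most 14.2 TPM in any other library. Erythroid genes summed to 10950 to 11990 TPM in liver and averaged least in lymph node (75.9 TPM). Their other means ran from 1476 TPM (lung) and 1952 TPM (spleen) to 2953 TPM (blood) and 6662 TPM (bone marrow). Platelet genes averaged 2809 TPM in blood and 3.28 to 77.2 TPM in the other groups. B cell genes, at 623.9 TPM, and cytotoxic T and natural killer cell genes, at 670 TPM, also averaged most in blood. Their lymph node means were 160.4 and 99.7 TPM. Spleen was close for B cell genes (570.9 TPM). In bulk RNA, fewer cells of a type and less RNA per cell cannot be told apart, and the part of these other cells in the results below was not tested except where a value bears on it.

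Because these sums differ, each comparison was also made after scaling every library to the sum of 20 T cell genes, which was 7979 TPM in lymph node and 3439 TPM in blood. This scaling raised the log2 change of single genes by a median of 0.169 (spleen minus lymph node) to 1.11 (blood minus lymph node). Counts under it are given beside those as deposited. The scaling multiplies every gene of a library by the same factor, so RNA of other cells stays in and is multiplied too. Scaled values are therefore not values of T cells alone. In lung the T cell sum (5579 TPM) was below that of lymph node, while the Treg sum was above it (3603 against 2445 TPM). Scaling to Treg genes was not tried.

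Promoter sequences are shown for the 5 genes whose 3 lung libraries lay above all others, a set chosen after its values were seen. The core motif of HIF is marked in them. It does not set these 5 genes apart, since 28 of the 31 genes with a window held it. Each window holds the 250 bases before a RefSeq transcription start (GRCm38.p6), 5′ to 3′ on the gene's strand, with capitals on the motifs ACGTG and GCGTG in either orientation, so that CACGT and CACGC are the same motifs on the other strand. Slc16a3 (MCT4, a lactate exporter) lies at chr11:120948480-120960868 on the plus strand, and its window is chr11:120948817-120949066. Slc2a1 (GLUT1, a glucose transporter) lies at chr4:119108711-119137983 on the plus strand, with its window at chr4:119108495-119108744. Ldha (lactate dehydrogenase A, which turns pyruvate into lactate) lies at chr7:46841475-46855627 on the plus strand, and its 2 RefSeq starts have windows at chr7:46845554-46845803 (start 1) and chr7:46846832-46847081 (start 2). Egln3 (PHD3, a prolyl hydroxylase of HIF that is itself a HIF target) lies at chr12:54178981-54203860 on the minus strand, with its window at chr12:54203875-54204124. Hif1a (the oxygen-regulated subunit of HIF-1) lies at chr12:73901375-73947530 on the plus strand, with its window at chr12:73907617-73907866.
Slc16a3: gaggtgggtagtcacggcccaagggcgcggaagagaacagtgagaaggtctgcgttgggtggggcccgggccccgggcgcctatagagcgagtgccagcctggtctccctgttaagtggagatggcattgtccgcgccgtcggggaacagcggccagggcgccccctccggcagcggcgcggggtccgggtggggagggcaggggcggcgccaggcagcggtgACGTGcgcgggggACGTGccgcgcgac
Slc2a1: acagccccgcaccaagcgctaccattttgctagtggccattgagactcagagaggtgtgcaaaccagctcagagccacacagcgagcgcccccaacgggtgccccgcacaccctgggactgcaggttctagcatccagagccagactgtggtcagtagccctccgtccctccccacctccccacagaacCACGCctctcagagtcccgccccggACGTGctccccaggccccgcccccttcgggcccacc
Ldha start 1: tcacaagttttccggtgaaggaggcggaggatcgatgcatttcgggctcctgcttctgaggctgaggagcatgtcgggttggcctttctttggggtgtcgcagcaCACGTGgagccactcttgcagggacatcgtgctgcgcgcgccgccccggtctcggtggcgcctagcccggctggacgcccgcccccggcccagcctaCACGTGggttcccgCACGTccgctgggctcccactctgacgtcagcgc
Ldha start 2: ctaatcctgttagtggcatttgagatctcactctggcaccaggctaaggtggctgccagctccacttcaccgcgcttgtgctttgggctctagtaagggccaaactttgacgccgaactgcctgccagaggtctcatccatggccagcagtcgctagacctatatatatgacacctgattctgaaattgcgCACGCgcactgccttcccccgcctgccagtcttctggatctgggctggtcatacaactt
Egln3: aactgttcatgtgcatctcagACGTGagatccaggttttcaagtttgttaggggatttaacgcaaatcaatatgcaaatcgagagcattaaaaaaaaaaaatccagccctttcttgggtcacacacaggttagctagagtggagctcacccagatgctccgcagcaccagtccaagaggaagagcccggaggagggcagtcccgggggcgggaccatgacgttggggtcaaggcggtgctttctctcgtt
Hif1a: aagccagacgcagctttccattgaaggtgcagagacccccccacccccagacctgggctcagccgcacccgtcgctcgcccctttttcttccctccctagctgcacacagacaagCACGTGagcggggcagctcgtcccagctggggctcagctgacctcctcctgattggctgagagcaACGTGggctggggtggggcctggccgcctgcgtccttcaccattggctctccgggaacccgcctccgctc

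The window of Ldha start 1 held 3 ACGTG motifs, of which 2 sit in the palindrome CACGTG, which reads as the motif on both strands. That of start 2 held 0 ACGTG motifs and 1 GCGTG motif. Of the 2 starts, only start 2 was followed by bases that matched the beginning of a GENCODE transcript. The same match was found for Slc16a3 and Slc2a1 but not for Egln3 and Hif1a. A start that lies slightly upstream of a GENCODE start fails this match, so a failure does not mean that the start lies far away. For Egln3, on the minus strand, the window edge at 54203875 lies close to the GENCODE gene end at 54203860. Slc16a3 held 2 ACGTG motifs in the last bases before the start, Hif1a held 2, Egln3 held 1, and Slc2a1 held 1 of each motif. RefSeq windows were found for 31 of the 33 genes, and 28 of the 31 held either motif. Either motif was present in 80.0% of the 45 windows of these genes and in 38.6% of all 32851 windows of that length. ACGTG alone was present in 48.9% and 16.6%. The list was chosen as glycolysis and hypoxia response genes, HIF targets among them, so a higher share than in all windows could come from that choice. A match describes letters only, and nothing here measured binding.

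All 33 genes averaged 1 TPM or more in 1 or more groups and so were tested. In the F test over the 6 groups, 29 of 33 differed between organs (limma, adjusted p under 0.05), against 68.0% of all 16694 genes tested. The 4 that did not were Aldoc, Eno2, Pdk3 and Egln1. By mean TPM, 13 genes were highest in lung, 7 in bone marrow, 4 each in blood, liver and lymph node, and 1 in spleen. The share of all genes with their highest mean in each organ is not given, so these counts do not set the 33 genes apart. The summed TPM of the 17 glycolytic enzymes ran from 3473 ± 139 (SD, n = 3) in blood and 3572 ± 54.7 in spleen to 4024 ± 24.5 in lymph node, 4467 ± 98.1 in liver, 4557 ± 141 in lung and 4797 ± 33 in bone marrow. Under T cell gene scaling blood turned from the lowest to the highest of the 6, at 6028 ± 166 TPM, against 5485 ± 28.1 in bone marrow, 4878 ± 167 in lung, 4061 ± 122 in liver, 3030 ± 46.0 in spleen and 3011 ± 15.3 in lymph node. Single genes spanned more, up to a ratio of 28.7 between the highest and lowest organ mean (Pfkfb4).

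**Figure D1:**
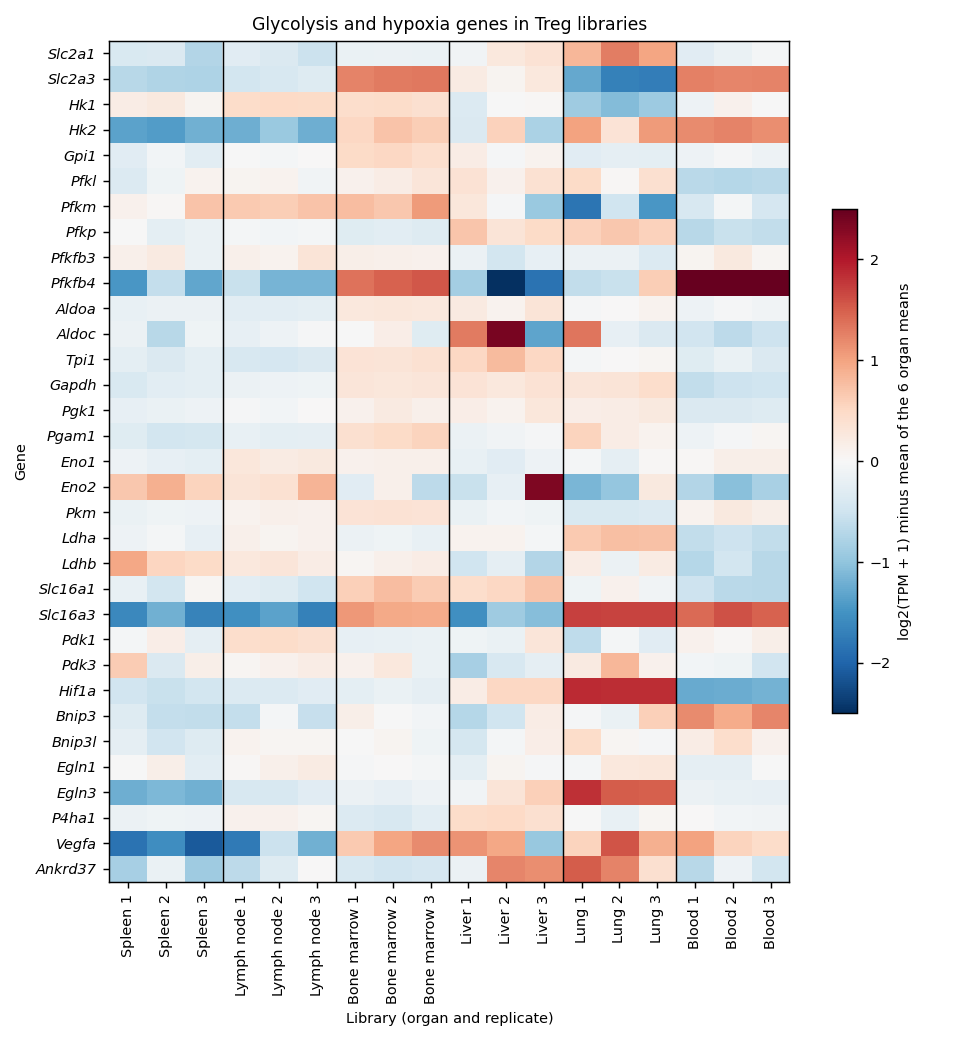
Heat map of the 33 genes (rows, in pathway order) in the 18 libraries (columns, grouped by organ). Colour gives log2(TPM + 1) minus the mean of the 6 organ means, and runs from -2.5 to 2.5. Lung stands high for Hif1a, Slc16a3 and Egln3 and low for Slc2a3 and Hk1, and blood stands high for Pfkfb4.

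Transcripts of the glucose transporters differed in their mix between organs. Glucose uptake itself was not measured. Slc2a1, the widely expressed basal glucose transporter, was at 51.4, 71.2 and 58.0 TPM in the lung libraries. It stood at 27.0, 34.5 and 36.9 TPM in liver, 25.5, 25.9 and 25.6 in bone marrow, 23.4, 25.3 and 27.8 in blood, 23.4, 22.1 and 19.3 in lymph node, and 21.9, 22.0 and 16.8 in spleen. All 3 lung libraries lay above every other library, while liver overlapped blood, blood overlapped bone marrow, and lymph node overlapped spleen. Slc2a1 was higher in lung than in lymph node by 1.43 (SE 0.15, adjusted p 1.01e-06) on the log2(TPM + 1) scale.

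Slc2a3 (GLUT3, a high-affinity glucose transporter, chr6:122727809-122801640) ran the other way. It was at 138.0, 143.8 and 144.1 TPM in bone marrow and 139.9, 136.3 and 137.1 TPM in blood, against 23.2, 17.1 and 16.6 TPM in lung. Liver held 66.2, 60.1 and 69.1 TPM, lymph node 41.7, 43.1 and 45.5, and spleen 35.2, 33.6 and 33.4. Lung was thus below every other library, bone marrow and blood were above all others, and these 2 overlapped each other. Lung was lower than lymph node by a log2 change of -1.17 (SE 0.10, adjusted p 1.6e-07), and blood exceeded lung by 2.81 (SE 0.10, adjusted p 4.36e-12). Both directions held under T cell gene scaling, where the lung value was -0.67. Slc2a3 is abundant in neutrophils as well as in T cells, and blood and bone marrow were also the groups with the highest myeloid sums. The part of myeloid cells in the Slc2a3 values was not tested.

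Within each library, Slc2a3 made up 84.7% ± 0.252 (SD, n = 3) of the 2 transporters' TPM in bone marrow and 84.4% ± 1.24 in blood. Its share was 66.8% ± 3.12 in lymph node, 66.6% ± 3.93 in liver, 62.9% ± 3.25 in spleen and 24.2% ± 6.13 in lung. Lung was the only group in which GLUT1 transcripts outnumbered those of GLUT3. This share needs no scaling between libraries, and it differed between organs by a permutation F test with 100000 resamples (adjusted p 3.7e-05 over the 11 shares tested).

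Transcripts of hexokinase, which phosphorylates glucose on entry, also differed in their mix between organs, in an order unlike that of the transporters. Hk1, the housekeeping form, was at 36.7, 31.9 and 36.1 TPM in lung, below every other library. It reached 94.8, 97.9 and 96.4 TPM in lymph node, 93.6, 95.2 and 90.8 in bone marrow, 77.9, 81.1 and 72.4 in spleen, 62.8, 74.1 and 68.5 in blood, and 53.9, 68.0 and 70.0 in liver. Lung fell below lymph node by a log2 change of -1.44 (SE 0.10, adjusted p 7.22e-09), and the value was -0.93 under T cell gene scaling. Hk2, the form that growth signals and HIF-1 raise, was scarce everywhere. It was at 16.5, 17.1 and 16.2 TPM in blood, 14.5, 8.78 and 15.1 in lung, 10.04, 11.6 and 10.8 in bone marrow, 5.0, 10.4 and 3.46 in liver, 2.32, 3.03 and 2.32 in lymph node, and 2.04, 1.93 and 2.34 in spleen. Blood lay above all other libraries, and spleen and lymph node lay lowest and overlapped each other.

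Against lymph node, Hk2 was higher by 2.32 (SE 0.28, adjusted p 5.35e-06) in blood, by 1.93 (adjusted p 3.65e-05) in lung and by 1.74 (adjusted p 0.000166) in bone marrow. The liver difference of 0.93 (adjusted p 0.0182) was lost when liver replicate 2, or either of lymph node replicates 1 and 3, was left out (adjusted p 0.059 to 0.0713). Hk2 made up 26.5% ± 4.27 of Hk1 and Hk2 TPM in lung and 19.6% ± 1.09 in blood, but 2.58% ± 0.366 in lymph node and 2.67% ± 0.415 in spleen (permutation F test, adjusted p 2.7e-05). Hk3, a hexokinase typical of myeloid cells that is not among the 33 genes, was at 52.0 to 60.2 TPM in blood and 72.8 to 79.5 TPM in bone marrow. It was at 1.52 to 2.47 TPM in lung and at most 0.49 TPM in lymph node.

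**Figure D2:**
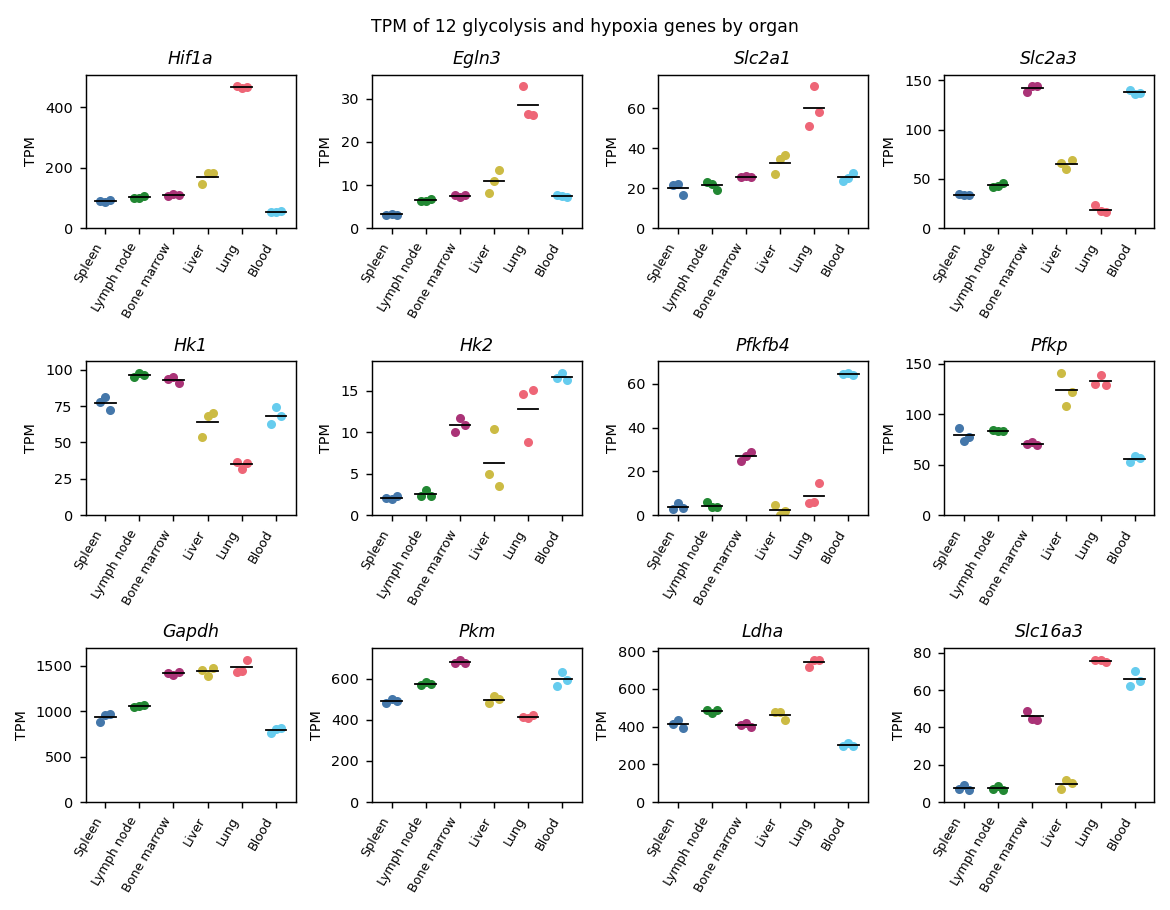
TPM of 12 genes by organ, one point per library and a line at the mean of each organ, on linear axes that start at 0. Hif1a in lung lies between 463 and 469.9 TPM, above all other libraries, and Slc16a3 is high in bone marrow, lung and blood only.

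The phosphofructokinase step, which commits glucose to glycolysis, changed mainly in its platelet-type and muscle-type subunits and in its regulators. Pfkp, the platelet-type subunit that T cells also use, was at 129.6, 138.6 and 129.3 TPM in lung and 141.1, 108.5 and 122.1 in liver, against 84.4, 83.0 and 83.3 in lymph node and 53.0, 58.9 and 56.6 in blood. Lung and liver overlapped and lay above all others, and blood lay below all others. Pfkp rose in lung (0.66, adjusted p 1.72e-05) and liver (0.55, adjusted p 0.000194) and fell in blood (-0.57, adjusted p 7.97e-05) relative to lymph node, but the blood value turned to 0.63 under T cell gene scaling. Pfkm, the muscle-type subunit, was at 1.5, 5.27 and 2.26 TPM in lung and 13.0, 12.7 and 13.6 TPM in lymph node. The 2 groups did not overlap, and Pfkm was lower in lung by a log2 change of -1.92 (SE 0.33, adjusted p 0.000212). Pfkl, the liver-type subunit, was at 23.0 to 23.7 TPM in blood, below every other library, and its difference from lymph node (-0.70, adjusted p 0.000506) turned to 0.48 under T cell gene scaling.

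Pfkfb3 and Pfkfb4 encode bifunctional enzymes that make or remove fructose 2,6-bisphosphate, the main activator of phosphofructokinase. Pfkfb4 (chr9:108991778-109032228) had the widest span of all 33 genes. It was at 64.2, 65.0 and 64.0 TPM in blood and 24.9, 27.2 and 28.9 TPM in bone marrow. Lung held 5.61, 5.88 and 14.5 TPM, lymph node 5.90, 3.54 and 3.52, spleen 2.70, 5.66 and 3.12, and liver 4.64, 0.28 and 1.81. Blood and bone marrow each stood apart from the 4 other organs, which overlapped. Pfkfb4 was higher in blood than in each of the other 5 groups, by 3.65 (SE 0.43, adjusted p 4.83e-06) against lymph node and 4.58 (adjusted p 3.46e-07) against liver.

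The difference of Pfkfb4 between blood and bone marrow was 1.23 (SE 0.43, adjusted p 0.0407), and 8 of the 18 fits that leave out 1 library did not call it (adjusted p 0.0503 to 0.106). These left out any bone marrow or blood library or lymph node replicate 2 or 3. It was not called either with a pseudocount of 0.1, with no filter or with abundant RNA classes removed. Pfkfb3 moved little, between 18.9 ± 2.17 TPM in liver and 26.2 ± 2.47 in lymph node. Its share of the 2 regulators was therefore 28.0% ± 1.39 in blood and 48.2% ± 2.09 in bone marrow, against 70.6% ± 13.2 in lung and 85.8% ± 4.36 in lymph node (permutation F test, adjusted p 2.7e-05). The 2 organs with the lowest Pfkfb3 share were those with the highest myeloid sums. Of these 2, blood had the lower share, and bone marrow had the higher myeloid sum (mean 50730 TPM, against 29360 TPM in blood). The part of myeloid cells in these values was not tested.

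The middle and lower steps of glycolysis changed by smaller amounts. Gapdh, the most abundant of the 33 transcripts, averaged 1482 ± 74.3 TPM in lung, 1443 ± 45.4 in liver and 1417 ± 16.0 in bone marrow. It averaged 1057 ± 13.4 TPM in lymph node, 936 ± 46.5 in spleen and 793 ± 31.8 in blood. Gapdh rose by 0.49 (adjusted p 2.13e-07) in lung and by 0.45 (adjusted p 1.5e-06) in liver against lymph node, so it was no constant reference among these organs. In blood it fell by 0.41 on the log2 scale (adjusted p 1.26e-06), a value of 0.80 under T cell gene scaling.

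Tpi1, which interconverts the triose phosphates, stood out in liver at 144.3, 174.5 and 144.2 TPM. Lymph node held 75.6, 74.5 and 77.3 TPM of it, below every other library. The liver difference was 1.01 (SE 0.08, adjusted p 9.09e-08). Gpi1, the glucose phosphate isomerase, was highest in bone marrow at 439 ± 15.7 TPM against 312 ± 7.57 in lymph node (0.49, adjusted p 2e-05). Pgam1, a phosphoglycerate mutase, averaged 130.7 ± 6.79 TPM in bone marrow and 80.2 ± 1.84 in lymph node (0.70, adjusted p 4.49e-05). The aldolase Aldoa was at 405.1 to 411.9 TPM in lymph node, below every other library, and had its highest mean in bone marrow (585.5 to 589.7 TPM), within the range of liver. Pgk1, a kinase that yields ATP, lay between 144.3 and 228.2 TPM in all libraries.

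Eno1 and Pkm were not raised in lung although their pathway neighbours were. Eno1, the main enolase, was at 563.0, 538.9 and 550.6 TPM in lymph node, above every other library. Lung held 450.6, 399.4 and 474.5 TPM, a change of -0.32 (adjusted p 0.000398). Pkm, the pyruvate kinase, was at 412.2, 408.7 and 423.6 TPM in lung, below every other library, and at 677.1, 691.9 and 677.1 TPM in bone marrow, above every other. Spleen held 480.3, 499.3 and 492.4 TPM, lymph node 566.6, 582.8 and 574.1, liver 479.4, 514.0 and 499.6, and blood 565.6, 631.2 and 591.2. The lung value of Pkm against lymph node was -0.47 (SE 0.04, adjusted p 1.62e-07) as deposited but 0.05 under T cell gene scaling, and that of Eno1 turned to 0.19. The tables give no splice forms, so the M1 and M2 forms of Pkm were not separated. Aldoc and Eno2, the brain-type isoenzymes, were at or below 3.87 and 6.07 TPM except in 4 liver or lung libraries, of which liver replicate 2 (Aldoc, 21.7 TPM) and liver replicate 3 (Eno2, 18.3 TPM) were the highest.

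Transcripts of Ldha and Slc16a3, whose products make and export lactate, had their highest means in lung. Ldha was at 713.5, 754.5 and 752.3 TPM in lung. The other organs held 489.7, 471.7 and 485.8 TPM in lymph node, 479.7, 476.0 and 436.1 in liver, 413.2, 432.9 and 392.0 in spleen, 406.1, 417.7 and 398.8 in bone marrow, and 294.7, 314.2 and 295.1 in blood. Lung was above and blood below every other library. The lung difference from lymph node was 0.62 (SE 0.05, adjusted p 4.46e-08). The blood difference was -0.68 (adjusted p 1.31e-08) as deposited and 0.53 under T cell gene scaling. Ldhb, the form that favours lactate use, was at 95.7, 70.9 and 68.5 TPM in spleen, 58.7, 60.4 and 55.2 in lymph node, 50.3, 53.1 and 55.7 in bone marrow, 55.6, 43.9 and 56.4 in lung, 34.2, 41.8 and 29.1 in liver, and 29.2, 35.0 and 29.6 in blood. Spleen lay above every other library, and liver and blood overlapped at the low end. Its share of lactate dehydrogenase TPM was 15.9% ± 2.53 in spleen, 10.8% ± 0.572 in lymph node and 6.56% ± 0.934 in lung (permutation F test, adjusted p 3.7e-05).

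Slc16a3, the exporter suited to high lactate output, was at 76.4, 75.9 and 75.3 TPM in lung, 62.1, 70.4 and 64.8 in blood and 49.0, 44.6 and 44.1 in bone marrow. It was at 7.25, 11.8 and 10.4 TPM in liver, 7.17, 8.42 and 6.41 in lymph node, and 6.82, 9.38 and 6.48 in spleen. The first 3 organs did not overlap each other or the other 3, and lung was highest as deposited. The difference between blood and lung (-0.21, adjusted p 0.33) was not called, and under T cell gene scaling blood was above lung (0.48, adjusted p 0.0154). Against lymph node, Slc16a3 was higher by 3.21 (SE 0.16, adjusted p 1.91e-10) in lung, by 3.01 (adjusted p 3.86e-10) in blood and by 2.5 (adjusted p 6.48e-09) in bone marrow. The difference between blood and bone marrow (0.51, adjusted p 0.0231) was not called without bone marrow replicate 2 or 3 or without blood replicate 2 or 3 (adjusted p 0.0561 to 0.0845).

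The 3 organs with the most Slc16a3 were also those with the highest myeloid sums (50610 to 50950 TPM in bone marrow, 28900 to 29770 in blood and 1727 to 1843 in lung) and the highest macrophage sums (1242 to 1295, 900 to 918 and 726 to 828 TPM). The part of those cells in the Slc16a3 values was not tested. Slc16a1 (MCT1, which carries lactate both ways) was at 18.9, 21.4 and 19.3 TPM in bone marrow, 16.8, 17.7 and 20.6 in liver, 9.95, 9.43 and 8.27 in lymph node, and 8.14, 7.26 and 7.07 in blood, with 8.54 to 13.2 TPM in spleen and lung. Bone marrow and liver overlapped above all others, and blood lay below all others. Liver was thus the organ where Slc16a1 rose (0.92, adjusted p 0.000216) without a called change of Slc16a3 (0.36, adjusted p 0.104). Slc16a3 made up 86.4% ± 1.10 of the 2 exporters' TPM in lung and 89.7% ± 1.17 in blood, against 44.2% ± 2.69 in lymph node and 34.6% ± 5.04 in liver (permutation F test, adjusted p 2.7e-05).

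**Figure D3:**
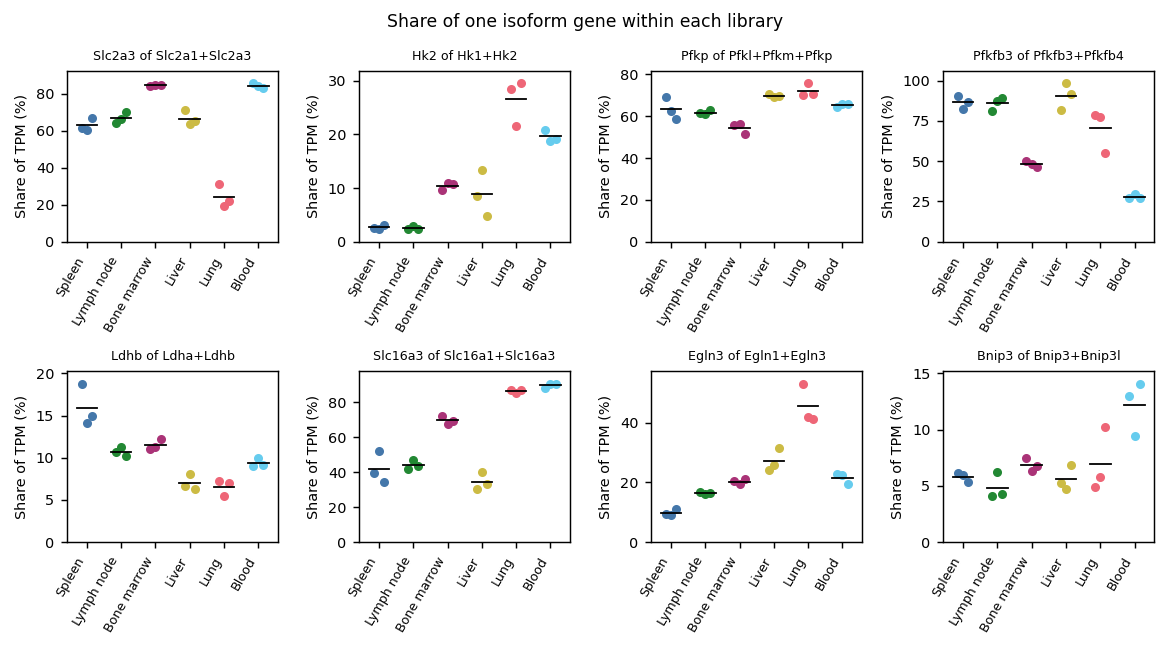
Share of TPM held by one gene among close isoenzymes or paralogues, in percent, one point per library with a line at the organ mean, on axes that start at 0. The Slc2a3 share drops to 24.2% in lung, and the Pfkfb3 share drops to 28.0% in blood.

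The pyruvate dehydrogenase kinases hold pyruvate back from mitochondria. Pdk1, a HIF-1 target, was at 60.3, 61.2 and 59.2 TPM in lymph node, above every other library. It was lower in lung (28.2, 42.9 and 36.6 TPM) by a log2 change of -0.75 (SE 0.15, adjusted p 0.000597). Lung was the organ with the most Hif1a. Under T cell gene scaling the lung value was -0.24 and was not called. Pdk3 lay between 10.04 and 33.8 TPM, and its difference over the 6 organs did not pass the test (adjusted p 0.0574).

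Hif1a had the smallest F test p of the 33 genes (adjusted p 4.05e-13). It was at 469.9, 463.0 and 465.4 TPM in lung, 144.7, 182.6 and 182.6 in liver, and 108.4, 113.8 and 109.4 in bone marrow. Lymph node held 100.2, 100.5 and 105.2 TPM, spleen 91.9, 86.7 and 93.4, and blood 52.9, 53.4 and 56.0. No 2 of the 6 groups overlapped. Lung exceeded lymph node by 2.18 (SE 0.08, adjusted p 2.87e-12) and liver exceeded it by 0.72 (adjusted p 3.41e-06), both also higher under T cell gene scaling. Blood was below lung by a log2 change of -3.08 (SE 0.08, adjusted p 4.8e-14). Blood was also below lymph node (-0.90, adjusted p 9.4e-08) and spleen (-0.73, adjusted p 1.19e-06), but these values turned to 0.30 and 0.29 under T cell gene scaling. Hif1a is regulated largely through protein stability, which was not measured. The difference between bone marrow and lymph node (0.12, adjusted p 0.353) was not called, but it was called under T cell gene scaling (0.72, adjusted p 2.19e-06), with library weights and when only these 2 groups were fitted. Macrophage markers were also high in lung, with a sum of 726 to 828 TPM against 2.73 to 7.37 TPM in lymph node, and 1242 to 1295 TPM in bone marrow and 900 to 918 TPM in blood. By mean TPM, Plet1, Mrc1, Mertk, Ear2 and Marco of that list were highest in lung, as Hif1a was. Adgre1, Csf1r, Cd68, Siglecf, C1qa, C1qb and Fabp4 of the list were highest in blood, and Chil3 in bone marrow. The part of these cells in the Hif1a values was not tested.

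Egln3 had the same order of means as Hif1a among the 5 organs other than blood. It was at 32.9, 26.4 and 26.2 TPM in lung, 8.07, 11.0 and 13.5 in liver, 7.66, 7.33 and 7.75 in bone marrow, 7.65, 7.41 and 7.29 in blood, 6.26, 6.32 and 6.88 in lymph node, and 3.13, 3.38 and 3.16 in spleen. Lung lay above and spleen below every other library. Egln3 was higher in lung than in lymph node by 1.97 (SE 0.16, adjusted p 9.4e-08) and in liver by 0.64 (adjusted p 0.00773). The liver value was not called when the fit held only these 2 groups. Egln1 (PHD2, the main oxygen sensor in most cells) stayed between 25.1 and 37.1 TPM and did not pass the F test (adjusted p 0.231). Egln3 made up 45.5% ± 6.62 of the 2 hydroxylases' TPM in lung, 27.1% ± 3.78 in liver, 21.5% ± 1.85 in blood, 16.4% ± 0.416 in lymph node and 9.90% ± 1.13 in spleen (permutation F test, adjusted p 2.7e-05).

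Bnip3 and Bnip3l encode mitophagy receptors that HIF-1 raises. Bnip3 was at 26.3, 22.0 and 27.2 TPM in blood, above every other library, and at 6.91, 10.6 and 7.06 TPM in lymph node (1.53, SE 0.24, adjusted p 0.000107). It was higher in blood than in each other organ, including bone marrow (1.10, adjusted p 0.00242). Bnip3l (NIX, also used when reticulocytes clear their mitochondria) was more abundant, at 110.0 to 211.5 TPM, and its organs overlapped widely, although it passed the F test (adjusted p 0.0228).

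Of the other 3 hypoxia targets, P4ha1 was highest in liver, and Ankrd37 and Vegfa had their highest means in lung. P4ha1, a collagen prolyl hydroxylase subunit, was at 53.1 to 56.3 TPM in liver, above every other library, and 41.4 to 43.1 TPM in lymph node (0.36, adjusted p 0.00235). Ankrd37 was at 39.0, 32.1 and 17.4 TPM in lung and 11.5, 31.6 and 30.4 TPM in liver, against 7.81, 10.2 and 13.1 in lymph node. Its lung difference was 1.38 (SE 0.35, adjusted p 0.00509). The liver difference (1.07, adjusted p 0.0314) was lost without liver replicate 2 or 3 or without lymph node replicate 1 or 2, and the liver and lymph node libraries overlapped. Vegfa, the vascular growth factor, was at 0.18 to 0.72 TPM in spleen and at 6.40, 14.0 and 8.29 TPM in lung (2.17 against lymph node, adjusted p 0.00134). It was also higher in bone marrow (2.11, adjusted p 0.00297) and blood (1.84, adjusted p 0.00514) than in lymph node. In liver it ranged from 1.59 to 9.89 TPM, and the call against lymph node (1.54, adjusted p 0.0193) was lost when liver replicate 1 or 2 or lymph node replicate 1 or 3 was left out.

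Counted over all 33 genes, lung against lymph node gave 14 higher and 8 lower, where 14.9% of all genes were called higher and 27.4% lower. The median log2 change of the 33 was 0.29 and that of all genes -0.20. T cell gene scaling gave 24 higher and 3 lower, with 26.5% and 11.4% of all genes. Liver against lymph node gave 14 higher and 6 lower (9.45% and 21.6% of all genes), with a median of 0.21 against -0.19. The scaled counts were 19 and 2, with 14.3% and 9.24% of all genes. Bone marrow gave 13 higher and 3 lower (13.7% and 8.89%), with a median of 0.18 against 0.0, and 26 and 0 when scaled (41.8% and 1.86%). Spleen gave 0 higher and 8 lower by limma (4.44% and 9.87%), with a median of -0.18 against -0.11. At an unadjusted p under 0.05, 1 gene was higher and 13 were lower in spleen, but the share of all genes at that threshold is not given. The scaled counts were 3 and 2 (5.80% and 3.16%). Leaving out single libraries took the 8 to between 4 and 11. The count fell to 4 or 5 without spleen replicate 1 or 3, any lymph node library, bone marrow replicate 2 or blood replicate 3.

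**Figure D4:**
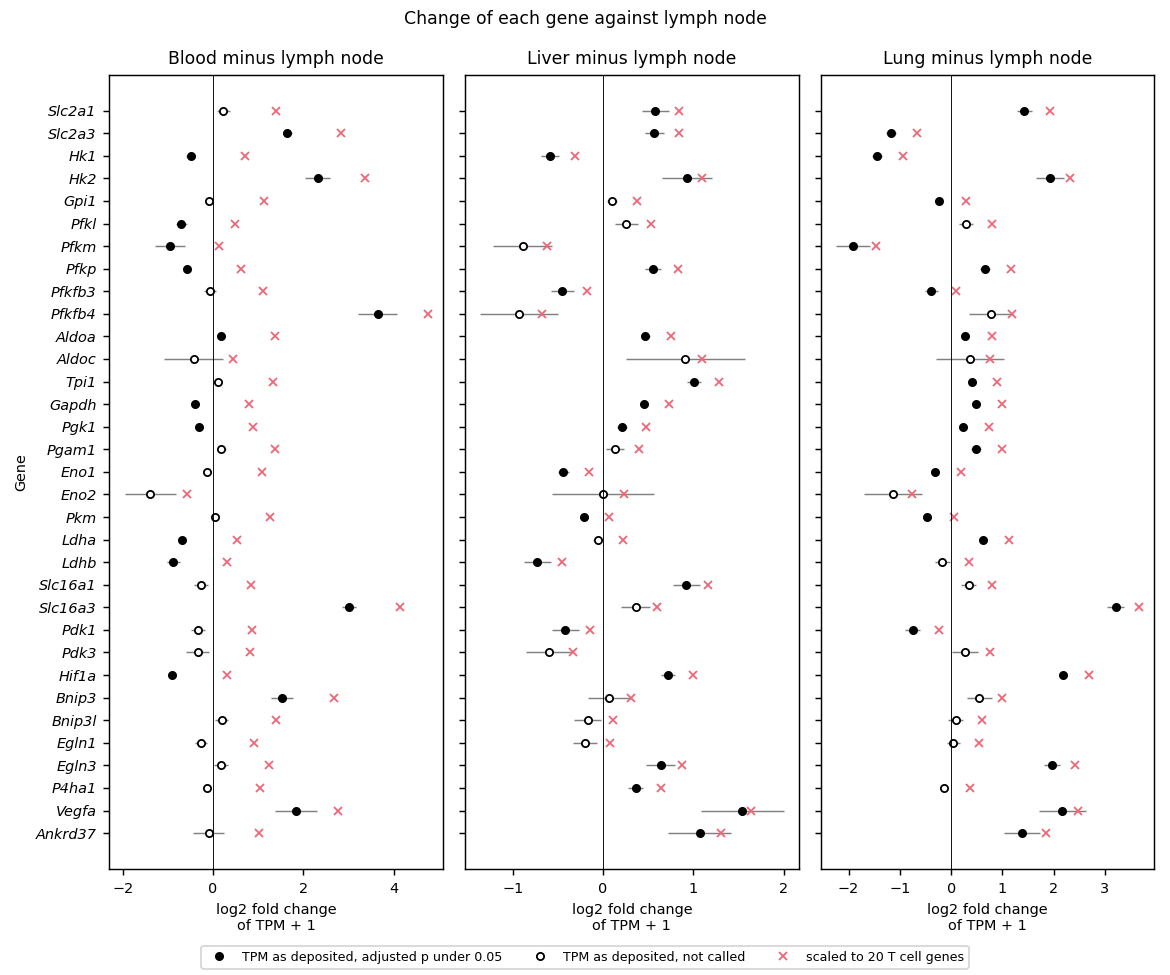
Log2 fold change of TPM + 1 for each of the 33 genes in blood, liver and lung against lymph node, with bars of 1 standard error and filled points for an adjusted p under 0.05. Crosses give the value after scaling to 20 T cell genes, which lies to the right in blood for every gene, while Hk1, Slc2a3 and Pfkm stay below 0 in lung.

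Blood against lymph node gave 7 higher and 9 lower (16.4% and 21.0% of all genes), with a median of -0.13 against -0.15. Against spleen it gave 11 higher and 9 lower (20.1% and 15.3%), with a median of 0.06 against 0.0. Under T cell gene scaling, 29 genes were higher and 0 lower in both comparisons, as were 60% and 59.5% of all genes, with 1.56% and 2.11% lower. Blood against bone marrow gave 4 higher and 15 lower (13.0% and 18.8%), with a median of -0.29 against -0.11, and 17 and 3 when scaled (36.4% and 7.06%). The 4 became 1 or 2 without bone marrow replicate 2 or 3 or blood replicate 2 or 3. Blood against liver gave 8 and 13 (23.3% and 16.1%), with a median of -0.15 against 0.07, and 22 and 1 when scaled (62.2% and 4.61%). Blood against lung gave 9 and 13 (26.4% and 17.3%), with a median of -0.28 against 0.12, and 19 and 6 when scaled (54.2% and 7.0%). These 5 comparisons share the blood libraries. The lymph node libraries are likewise shared by the 5 comparisons against lymph node.

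In all 3 libraries, lung lay above the libraries of every other organ for 5 genes (Slc2a1, Ldha, Slc16a3, Hif1a and Egln3), as did 6.24% of all genes tested. It lay below them for 3 (Slc2a3, Hk1 and Pkm), as did 6.63%. Blood lay above for 3 (Hk2, Pfkfb4 and Bnip3), where 10.1% of all genes did. It lay below for 7 (Pfkl, Pfkp, Gapdh, Pgk1, Ldha, Slc16a1 and Hif1a), where 4.79% did. Under T cell gene scaling all 7 were higher in blood than in lymph node (0.30 to 0.89). Bone marrow lay above for Gpi1 and Pkm (5.28%) and below for P4ha1 (0.827%). Liver lay above for Tpi1 and P4ha1 (2.05%) and below for 0 genes (2.6%). Lymph node lay above for Eno1 and Pdk1 (5.63%) and below for Aldoa and Tpi1 (1.28%), and spleen lay above for Ldhb (2.05%) and below for Pgam1 and Egln3 (2.62%).

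The wider pathway was read from 6 further lists, also chosen with earlier results of these data known. Of all genes tested against lymph node, 14.9% were called higher and 27.4% lower in lung (26.5% and 11.4% under T cell gene scaling), 9.45% and 21.6% in liver (14.3% and 9.24%), and 16.4% and 21.0% in blood (60% and 1.56%). Of 28 other hypoxia targets, 26 were tested. Lung against lymph node gave 12 higher and 5 lower (14.9% and 27.4% of all genes), with a median of 0.61 against -0.20 for all genes, and 16 and 3 under T cell gene scaling. Bhlhe40, a transcriptional repressor of clock and activation genes, was at 436.5, 364.4 and 409.8 TPM in lung and 26.5, 28.0 and 26.3 TPM in lymph node (3.85, SE 0.11, adjusted p 1.84e-13). Its liver mean was 367.7 TPM, close to that of lung. Fam162a, a mitochondrial HIF target, fell from 76.5 to 34.4 TPM (-1.13, adjusted p 2.1e-06), and Insig2, a brake on sterol synthesis, fell from 34.3 to 13.1 TPM (-1.48, adjusted p 0.00222).

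Liver against lymph node gave 10 higher and 5 lower among these 26 (9.45% and 21.6% of all genes), with a median of 0.24 against -0.19, and 12 and 3 when scaled. Blood gave 5 and 8 (16.4% and 21.0% of all genes), with a median of -0.23 against -0.15, and 16 and 1 when scaled. Cxcr4, a chemokine receptor, was at 337.8 to 356.3 TPM in blood and 52.7 to 57.5 TPM in lymph node (2.66, SE 0.07, adjusted p 8.38e-14). Ddit4, an inhibitor of mTORC1, was at 37.3, 37.4 and 40.9 TPM in blood and 150.3, 163.8 and 169.7 TPM in lymph node (-2.04, SE 0.08, adjusted p 1e-11), and it stayed lower under every scaling. Hmox1, haem oxygenase, was higher in blood (3.67, adjusted p 5.17e-11) and is abundant in macrophages. The part of macrophages in the Hmox1 values was not tested.

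**Figure D5:**
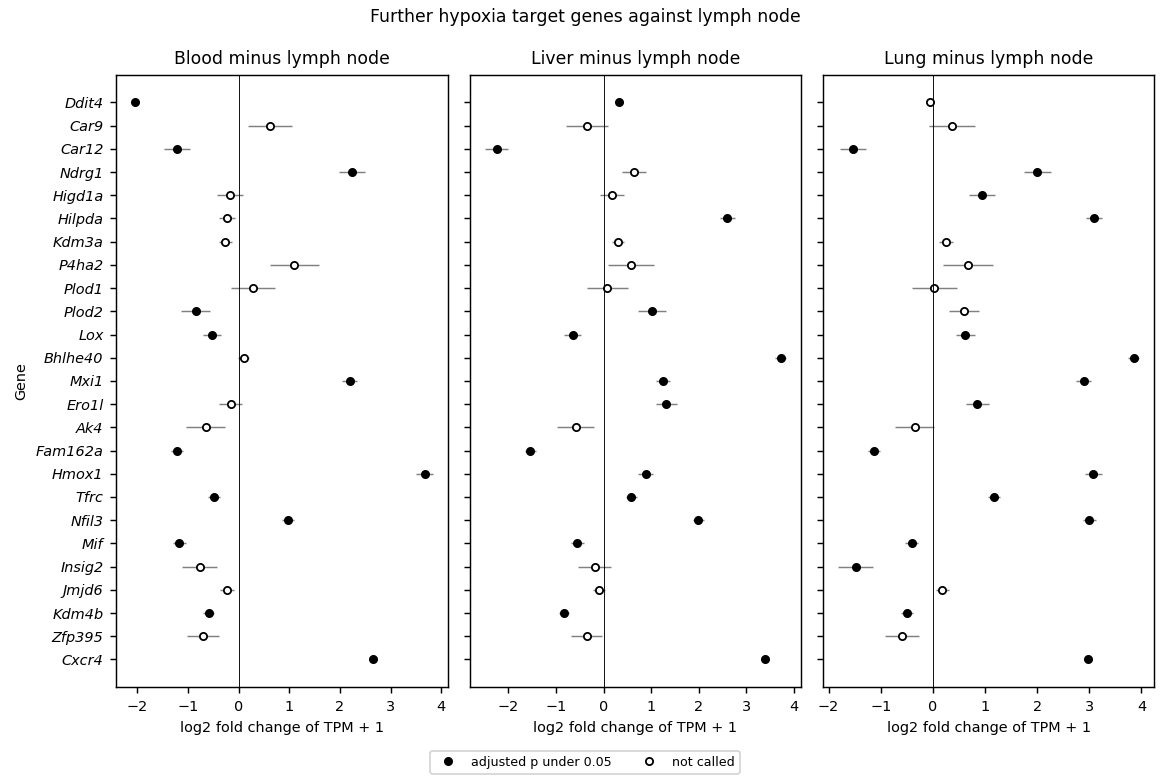
Log2 fold change of TPM + 1 for genes of the further hypoxia target list in blood, liver and lung against lymph node, with bars of 1 standard error and filled points for an adjusted p under 0.05. Bhlhe40 lies far to the right in liver and lung but not in blood, and Ddit4 lies at -2.04 in blood.

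Among 17 genes of the HIF machinery, 16 were tested, and lung against lymph node gave 5 higher and 2 lower (14.9% and 27.4% of all genes), with a median of 0.16 against -0.20, and 8 and 0 when scaled. Epas1, which encodes HIF-2 alpha and is also abundant in endothelium, was at 39.5, 43.5 and 35.9 TPM in lung and 2.25, 2.37 and 2.17 TPM in lymph node (3.63, SE 0.35, adjusted p 4.8e-07). The endothelial and stromal list summed to 112.7 to 142.4 TPM in lung and 99.2 to 105.5 TPM in lymph node. Of its 8 genes, 4 averaged at least 1 TPM in lung but only 1 did in lymph node, so the sums do not compare endothelial RNA. The part of endothelial cells in the Epas1 values was not tested. Cited2, which competes with HIF-1 for its coactivators, was at 102.6 to 160.4 TPM in lung and 31.2 to 34.7 TPM in lymph node (1.87, adjusted p 4.29e-08). Hif1an, the asparaginyl hydroxylase that blocks HIF-1 activity, had log2 values of -0.38 in lung and -0.39 in blood (adjusted p 0.045 each). These calls were lost in 14 and 12 of the 18 fits without 1 library, among them each fit without a spleen, lymph node, bone marrow or blood library, and in lung those without lung replicate 1 or 3, and both values turned positive under T cell gene scaling. Vhl, the ligase subunit that removes HIF-1 alpha, did not pass the F test. Blood gave 1 higher, Cited2 (1.47, adjusted p 6.63e-07), and 3 lower (16.4% and 21.0% of all genes), and 14 and 1 when scaled.

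Of 30 other glycolysis genes, 20 were tested, with 4 higher and 4 lower in lung (14.9% and 27.4% of all genes) and 4 higher and 3 lower in blood (16.4% and 21.0%) against lymph node. The medians were -0.24 in lung and -0.07 in blood, against -0.20 and -0.15 for all genes. Scaled, the counts were 5 and 3 in lung and 14 and 0 in blood. Emb (embigin, a chaperone of lactate transporters and an adhesion protein) was at 1123, 1054 and 1008 TPM in lung, 356.4 to 360.2 in liver, 231.6 to 247.0 in blood, 181.6 to 193.1 in bone marrow, 80.4 to 101.4 in spleen and 85.1 to 93.6 in lymph node. Lung exceeded lymph node by 3.56 (SE 0.07, adjusted p 5e-15), and only spleen and lymph node overlapped. Bsg (basigin, the other chaperone) was called neither in lung nor in blood. Slc2a6, a transporter found on lysosomes, was higher in blood (4.51, adjusted p 8.63e-10) and lung (3.21, adjusted p 5.74e-08). Galm, which converts glucose anomers, was lower in lung (-2.71, adjusted p 1.77e-10) and in blood (-1.35, adjusted p 6.77e-07), where the value under T cell gene scaling was -0.19 and not called. Eno3, the muscle-type enolase, fell in lung from 52.6 to 11.9 TPM (-2.14, adjusted p 9.14e-06).

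The routes beside glycolysis gave the following. In the pentose phosphate list of 10 genes, blood against lymph node gave 4 higher and 4 lower (16.4% and 21.0% of all genes), and 10 and 0 when scaled. The largest rises were those of the transaldolase Taldo1 (682.9 ± 29.2 against 172.7 ± 4.83 TPM, 1.98, adjusted p 2.23e-12) and of Pgd, a dehydrogenase that makes NADPH (1.79, adjusted p 2.71e-07). Both enzymes are abundant in neutrophils. In bone marrow, the group with the highest myeloid sum, Taldo1 averaged 359.4 TPM, below blood. Pgd averaged 181.6 TPM in bone marrow and 202.8 TPM in blood. The part of neutrophils in these values was not tested. Lung gave 1 higher and 6 lower (14.9% and 27.4% of all genes), and 3 and 2 when scaled. Of 16 citric acid cycle genes, blood gave 0 higher and 9 lower by limma (16.4% and 21.0% of all genes), and at an unadjusted p under 0.05 the counts were 0 and 12. The share of all genes at that unadjusted threshold is not given. With T cell gene scaling all 16 were higher in blood, as were 60% of all genes. Lung gave 1 higher and 8 lower (14.9% and 27.4% of all genes), and 7 and 1 when scaled. Idh3b, a subunit of isocitrate dehydrogenase, averaged 80.7 TPM in lung and 136.6 TPM in lymph node (-0.76, adjusted p 3.3e-06, and -0.25, adjusted p 0.0417, when scaled). Of the 11 tested genes of pyruvate entry, lung gave 3 higher and 2 lower (14.9% and 27.4% of all genes), and 7 and 1 when scaled, with Pdp1, a phosphatase that turns pyruvate dehydrogenase on, higher by 1.46 (adjusted p 1.13e-06) and the kinase Pdk2 lower (-1.96, adjusted p 0.00114).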

How the data were processed

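The deposited files, 1 per library, hold TPM for 55487 Ensembl gene IDs. Per the submitters' processing notes, STAR, RSEM and the mm10 build were used. The annotation and strand setting are not given in the sources used here. Per the labels' protocols, libraries were made with a directional kit. TPM keeps no depth. The number of genes above 0 ran from 14314 to 14408 per library in liver to 19633 to 19797 in bone marrow, and the median coefficient of variation between replicates (1478 genes at 100 TPM or more) from 2.60% in lymph node to 10.5% in liver.

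The 33 genes and all other lists were chosen with earlier results of these data known. Symbols came from GENCODE M21 (GRCm38, the same assembly as mm10). Aldoa matched 2 IDs, of which the second, at most 1.11 TPM, was not used. Named processed copies of these genes reached at most 9.35 TPM.

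Expression was compared with limma 3.58.1 in R 4.3.3 on log2(TPM + 1), for the 16694 genes that averaged 1 TPM or more in any group. All 18 libraries entered 1 fit that estimated group means without covariates, with trended, robust moderated variances. Benjamini-Hochberg adjustment covered every gene tested in a contrast, with calls at 0.05. Fold changes understate the change of low genes. On simulated data for lung minus lymph node (14254 genes), 57% of changes of size 1 and 96% of size 2 (log2) were recovered, with 9 false calls. The simulation changed 100 genes of each size, in lung only, drawn from genes expressed in lymph node. Far more genes were called in the measured contrast, so these rates need not hold there.

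The 11 isoform shares were tested over the 18 libraries with a permutation F test. Values per library, or their ranges, are given for Slc2a1, Slc2a3, Hk1, Hk2, Pkm, Ldha and Hif1a and, per contrast, for the 3 called genes with the largest change in each direction that averaged at least 10 TPM in the higher group without overlap. For the further lists the same conditions gave up to 2 genes per direction in blood and lung against lymph node, of which some are not reported here. Other genes were named for their role. Alternatives were pseudocounts of 0.1 and 5, no filter or 5 TPM, scaling to 20 T cell genes or by median ratios, removal of abundant RNA classes, library weights, only the 2 groups compared, a replicate block and leaving out each library. A fit to the 12 libraries without blood and bone marrow and the scaled enzyme sum were added after the data were seen.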

Additional observations from a re-analysis of the deposited data

How the results depend on the processing

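Scaling to T cell genes changed most counts. It made the counts of genes higher and lower 29 and 0 in blood against spleen and against lymph node, 17 and 3 against bone marrow, 22 and 1 against liver, and 19 and 6 against lung. Against lymph node it gave 3 and 2 for spleen, 26 and 0 for bone marrow, 2 lower for liver, and 24 and 3 for lung. It also turned the sign of the following log2 changes, to the values given. For blood against spleen, these were Hif1a 0.29, Hk1 0.85, Ldha 0.58 and Pfkl 0.44. For blood against lymph node, these were Elob 0.70, Gapdh 0.80, Hif1a 0.30, Hif1an 0.77, Hk1 0.71, Ldha 0.53, Ldhb 0.31, Pdha1 0.74, Pdhb 0.95, Pfkl 0.48, Pfkm 0.14, Pfkp 0.63, Pgk1 0.89, Pgm1 0.44, Prps1 0.58, Prps2 0.51 and Sdhc 0.52. For blood against bone marrow, these were Hk1 0.15, Ldha 0.17, Pkm 0.41, Slc2a1 0.57 and Slc2a3 0.56. For blood against liver, these were Ldha 0.31 and Slc2a1 0.56. For blood against lung, this was Slc16a3 0.48. For bone marrow against lymph node, these were Hk1 0.56, Ldha 0.37 and P4ha1 0.17. For liver against lymph node, these were Ldha 0.22 and Pkm 0.07. For lung against lymph node, these were Eno1 0.19, Gpi1 0.28, Hif1an 0.11, Pdha1 0.05 and Pkm 0.05. Median ratio scaling took Pdhb in blood against lymph node to 0.00. It gave 13 genes higher in blood against lymph node, 7 higher against bone marrow, 3 higher and 2 lower in spleen, 3 lower in liver and 5 lower in lung. Library weights gave 16 lower in blood against lymph node, 7 higher against bone marrow, 2 higher and 13 lower in spleen, and 6 lower in bone marrow. Fitting only the 2 groups gave 15 lower in blood against lymph node, 7 higher against bone marrow, 5 higher against lung, 1 higher in spleen, 6 lower in bone marrow and 9 higher in liver. Removing abundant RNA classes gave 2 higher and 2 lower in spleen and 5 lower in bone marrow. Spleen had 5 lower with no filter and 5 in the 12 libraries without blood and bone marrow. The cause of these moves was not tested. Shares of all genes under the settings other than T cell gene scaling are not given. Counts under those settings show only how far the calls moved.

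Leaving out 1 library at a time moved the count higher in blood against bone marrow between 1 and 5, the count lower in spleen between 4 and 11, and the count higher in spleen between 0 and 1 (1 without liver replicate 2). The F test count stayed between 28 and 31. For the isoform shares, the span between organs was 0.594 to 2.41 points for Aldoc and 1.04 to 2.14 points for Eno2, and both passed the test without liver replicate 3 only (2.41 and 1.04 points). The other 9 shares passed in every such fit. The replicate block gave 29 genes in the F test and 3 higher in blood against bone marrow, and ended the calls of Pfkfb4 there and of Pdk1 in spleen. Libraries with the same replicate number were at most weakly alike. Over 45 same-numbered pairs, correlations of deviations ran from -0.0882 to 0.112, with 4 over 0.1. Their median was 0.0247, against -0.0148 for pairs with different numbers. Of the 18 libraries, 11 correlated best with their own number, which is more than an even spread over the numbers would give. Whether same-numbered libraries share a source was not tested. Liver has the fewest genes detected and the largest spread, which limits Vegfa, Ankrd37, Hk2 and Aldoc there.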
